A study of Mus musculus with 9 samples.

Results

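Ventricles of mice with a constitutively active phosphoinositide 3-kinase (PI3K) were compared with ventricles of mice with a dominant negative PI3K, which are the opposite ends of a series on heart size. The 6 arrays of this comparison were chosen by their sample titles, out of 9 arrays in all. The 3 caPI3K mice carried the active transgene and the 3 dnPI3K mice the dominant negative one. The remaining 3 mice, called NTG, carried no transgene, and their values stand beside the others without being part of the comparison. The labels put heart size 20% above that of wild type littermates in caPI3K animals and 17% below it in dnPI3K animals. They give only the ventricle as source, total RNA as the molecule and 1 animal per array. The promoter that drives either transgene, the number of founder lines, and the animals' strain, age and sex are not in the labels.

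Class I PI3K is a pair of a catalytic and a regulatory subunit that acts downstream of insulin and IGF receptors. It makes a membrane lipid that recruits and activates the kinase Akt, and Akt in turn holds FoxO transcription factors out of the nucleus and releases mTOR-driven protein synthesis. In the heart the pathway is known for its part in postnatal growth and in the enlargement that comes with exercise.

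Values are array intensities in arbitrary units, which the submitters had brought to a common level on every array. Here they were quantile normalized across the 9 arrays. A probe set is a group of short probes for 1 transcript, and each gene is described by its brightest probe set. Changes are log2 fold changes, caPI3K minus dnPI3K, with the standard error (SE) of the limma fit after the ± sign, and group means of intensity are given ± SD (n = 3). A probe set was called when its limma p-value was under 0.05 after Benjamini-Hochberg adjustment over the 10645 tested probe sets. P-values measure the spread among 3 animals per group.

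The dnPI3K arrays stood apart in some array control probe sets. The 3′ control for 18S ribosomal RNA read 8097, 3303 and 6776 on them and 540.4, 475 and 539 on the caPI3K arrays (deposited intensities). Spike-in controls, RNA added at a fixed amount during labelling or hybridisation, had a geometric mean of 1759.9 ± 210.3 (SD, n = 3) in dnPI3K and 3089 ± 302 in caPI3K. The 3′ to 5′ signal ratio of Actb, which rises as RNA degrades, was 1.29 ± 0.0105 in dnPI3K, 1.13 ± 0.0866 in caPI3K and 1.22 ± 0.0767 in NTG, and that of Gapdh was 0.813 ± 0.0314, 0.839 ± 0.0320 and 0.849 ± 0.0147. For the 18S 3′ control, the spike-ins and Actb the values of caPI3K and dnPI3K did not overlap, with p = 0.1 in a two-sided exact permutation test, the smallest that 3 against 3 arrays can give. For Actb the NTG arrays overlapped dnPI3K, and for Gapdh all groups overlapped. The dnPI3K animals also have numbers from a separate, lower series, so anything that goes with that series cannot be told apart from the transgene. Correlations across probe sets were 0.958 to 0.962 among caPI3K arrays, 0.959 to 0.966 among dnPI3K arrays and 0.945 to 0.952 between the groups. Among the NTG arrays they were 0.947 to 0.953, which overlaps the range between caPI3K and dnPI3K. The 11 ventricular cardiomyocyte markers had summed intensities of 265192 to 280891 in caPI3K and 270575 to 288468 in dnPI3K, and these ranges overlap. Very bright probe sets such as those of Actc1 and Mb carry much of this sum, and quantile normalization holds such probe sets close together. The overlap therefore does not measure the share of cardiomyocytes. The median log2 change of these markers was -0.00, and up to 0.34 under other processing of the same arrays.

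**Figure D1:**
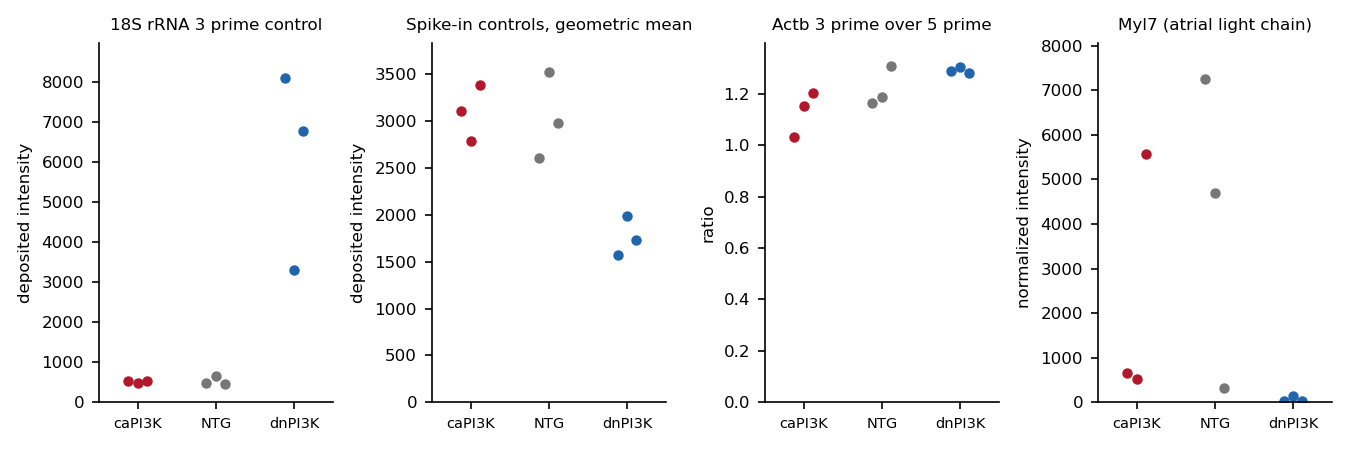
Control probe sets and the atrial light chain Myl7 on every array, with caPI3K, NTG and dnPI3K on the x axis and the deposited intensity, the 3′ over 5′ ratio or the normalized intensity on the y axis. The 3 dnPI3K arrays lie far above the others for 18S ribosomal RNA and below them for the spike-ins, while Myl7 is high on 1 caPI3K array and on a pair of NTG arrays.

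Between the active and the dominant negative ventricle, 345 of 10645 probe sets (3.24%) were called. Of these, 181 (1.70%) were higher in caPI3K and 164 (1.54%) higher in dnPI3K. On all 345 the values of the 2 groups did not overlap, which was also the case for 23.3% of all tested probe sets. An absolute log2 change over 1 was reached by 84 called probe sets in the caPI3K direction and 60 in the dnPI3K direction. With 1 probe set per gene, 259 of 7484 genes (3.46%) were called, 139 (1.86%) higher in caPI3K and 120 (1.60%) in dnPI3K, and the median change over all genes was 0.00. The counts for gene lists that follow stand against this share of 3.46%. An unadjusted limma p under 0.05 was reached by 1281 of the 7484 genes, and list counts at that threshold stand against this number. The number of calls depended on the arrays. Leaving out replicate 1, 2 or 3 of caPI3K gave 176, 142 and 213 calls, and leaving out replicate 1, 2 or 3 of dnPI3K gave 221, 134 and 186.

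**Figure D2:**
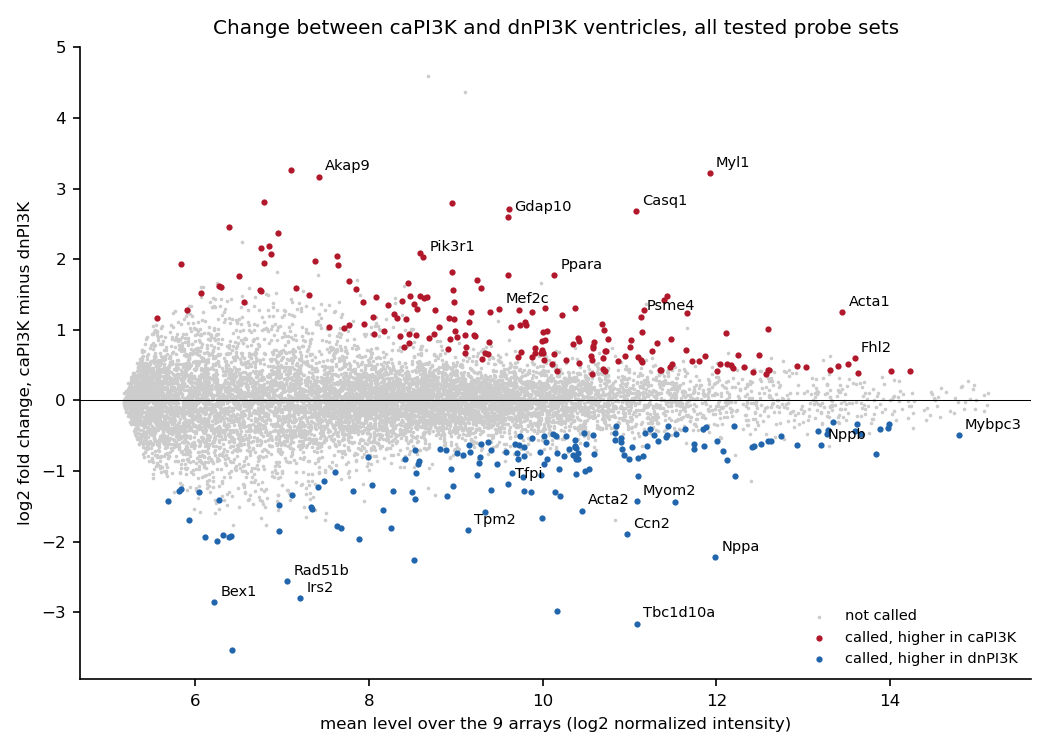
Log2 fold change, caPI3K minus dnPI3K, against the mean log2 level over the 9 arrays for the 10645 tested probe sets, with called probe sets in red (higher in caPI3K) or blue (higher in dnPI3K) and others in grey. Calls of both directions lie across the range of levels, with Myl1 (3.22) and Akap9 (3.17) near the top and Irs2 (-2.80) and Tbc1d10a (-3.16) near the bottom.

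Among the PI3K subunits themselves, Pik3r1, which encodes the main regulatory subunit, was 4.09-fold higher in caPI3K. It read 661, 482 and 683 on the caPI3K arrays, 123, 162 and 161 on the dnPI3K arrays and 542, 817 and 759.7 on the NTG arrays. The dnPI3K arrays lay below all others, and caPI3K overlapped NTG. The log2 change was 2.03 ± 0.22, adjusted p = 0.000851, and it was 1.90 to 2.18 with 1 array left out. Of the 4 measured class I subunits, 1 was called. The catalytic subunit genes Pik3ca (-0.63 ± 0.23, adjusted p = 0.18) and Pik3cd (-1.19 ± 0.41, adjusted p = 0.159) and the regulatory Pik3r2 (0.48 ± 0.45, adjusted p = 0.674) were not. Whether the transcripts of the transgenes match any of these probe sets is not stated in the labels, so they do not check the labels.

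Irs2, the adaptor that couples the insulin receptor to PI3K, was among the genes with the largest difference, 6.96-fold higher in dnPI3K. It read 49.1, 44.4 and 91.5 on the caPI3K arrays, 343, 491 and 398 on the dnPI3K arrays and 158, 149 and 107 on the NTG arrays. The groups did not overlap, and NTG animals lay between them. The log2 change was -2.80 ± 0.33, adjusted p = 0.00138, and it was -3.12 to -2.58 with 1 array left out. Igfbp3, a binding protein that carries insulin-like growth factors, was lower in caPI3K in the same way (124 ± 67.4 in caPI3K and 429 ± 37.7 in dnPI3K, -1.96 ± 0.37, adjusted p = 0.0182), and a second probe set gave the same call (adjusted p = 0.0262). The call of Igfbp3 was lost without dnPI3K replicate 1, 2 or 3 (adjusted p up to 0.0694). Of 18 tested ligands, receptors and adaptors of the insulin and IGF system, these 2 were called, both higher in dnPI3K, and the list median was -0.03. Irs1, the related adaptor (-1.03 ± 0.33, adjusted p = 0.129), and the growth factor Igf2 (0.39 ± 0.14, adjusted p = 0.166) were not called.

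Below PI3K, 3 of 19 tested genes of Akt, mTOR and their regulators were called, all of them higher in dnPI3K. They were Akt1 (782 ± 101 in caPI3K and 1455 ± 69.2 in dnPI3K, -0.90 ± 0.17, adjusted p = 0.0175), Akt2 (1165 ± 22.9 in caPI3K and 1727 ± 245 in dnPI3K, -0.56 ± 0.12, adjusted p = 0.0286) and Foxo3, a FoxO factor that Akt phosphorylates (742 ± 115 in caPI3K and 1537 ± 107 in dnPI3K, -1.06 ± 0.25, adjusted p = 0.0489). Akt1 read 896, 749.6 and 702 on the caPI3K arrays, 1397, 1532 and 1436 on the dnPI3K arrays and 812, 869 and 1297 on the NTG arrays. All 3 calls depended on the arrays. Akt1 lost its call without caPI3K replicate 2 or 3 or dnPI3K replicate 2 or 3 (adjusted p up to 0.08), Akt2 without caPI3K replicate 1, 2 or 3 or dnPI3K replicate 1 or 2 (adjusted p up to 0.118) and Foxo3 without caPI3K replicate 1, 2 or 3, dnPI3K replicate 1, 2 or 3 or NTG replicate 2 (adjusted p up to 0.162). The number called in this list was 0 to 3 with 1 array left out. Tsc2, a brake on mTOR, was not called (-0.33 ± 0.12, adjusted p = 0.194).

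Of 21 tested FoxO targets and atrophy genes, 2 (9.52%) were called, both higher in dnPI3K, and the median was -0.05. They were Irs2 and Gabarapl1, a gene of autophagosome formation (2348 ± 251 in caPI3K and 3369 ± 321 in dnPI3K, -0.52 ± 0.12, adjusted p = 0.0428), which lost its call without caPI3K replicate 1, 2 or 3 or dnPI3K replicate 2 or 3 (adjusted p up to 0.16). The stress sensor Sesn1 (-0.41 ± 0.10, adjusted p = 0.0522) was also higher on the dnPI3K side of the fit and catalase, Cat (0.41 ± 0.14, adjusted p = 0.152), on the caPI3K side, and neither was called. Pdk4, which shuts pyruvate out of oxidation, had a log2 change of 1.03 and was not called.

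**Figure D3:**
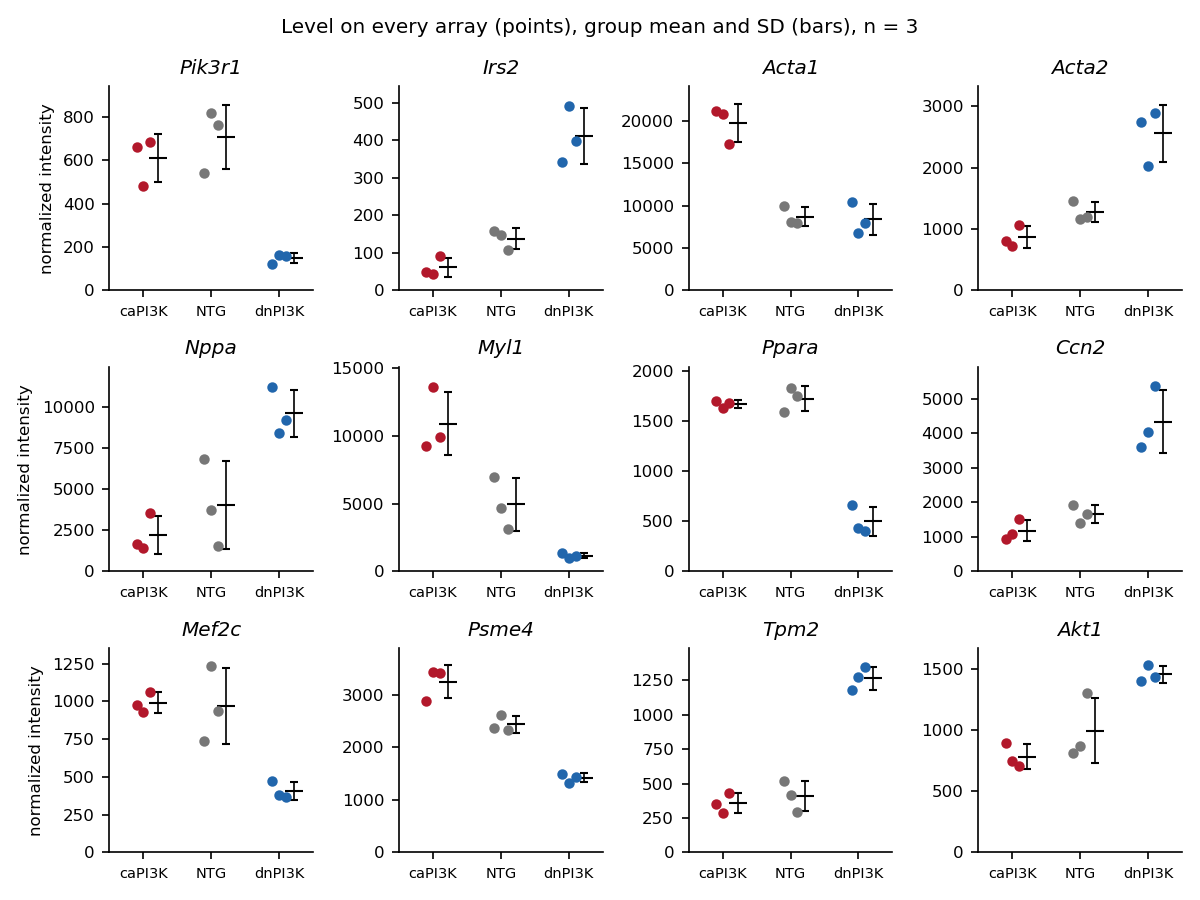
Normalized intensity of 12 genes on every array (points), with the mean and SD of each group of 3 (bars), in caPI3K, NTG and dnPI3K order. Pik3r1, Ppara and Mef2c are low on the dnPI3K arrays and similar in caPI3K and NTG, Acta1 is high on the caPI3K arrays, and Irs2, Acta2, Ccn2 and Tpm2 are highest on the dnPI3K arrays.

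The actin genes moved in opposite directions. Acta1, skeletal alpha-actin, is an actin of the fetal heart, and it was 2.39-fold higher in caPI3K. It read 21229.9, 20877 and 17243 on the caPI3K arrays, 10378, 6769 and 7972 on the dnPI3K arrays and 9968, 8036 and 8008 on the NTG arrays. All 3 caPI3K arrays lay above all others, and dnPI3K and NTG overlapped. The log2 change was 1.26 ± 0.16, adjusted p = 0.00164. Acta2, smooth muscle alpha-actin, was 2.95-fold higher in dnPI3K. It read 806, 727 and 1072 on the caPI3K arrays, 2749, 2021 and 2894 on the dnPI3K arrays and 1457, 1169.8 and 1188 on the NTG arrays. Here the dnPI3K arrays lay above all others (log2 change -1.56 ± 0.18, adjusted p = 0.00113). Actc1, the cardiac alpha-actin of the adult heart and one of the brightest probe sets, was not called (30288 ± 933 in caPI3K and 26545 ± 1846 in dnPI3K, 0.19 ± 0.08, adjusted p = 0.275). Quantile normalization holds the brightest probe sets close together. With the deposited values Actc1 was at 0.54 and was called higher in caPI3K (adjusted p = 0.034), and with scaling to the same median it was at 0.54 (adjusted p = 0.0525).

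The promoters of these actin genes and of 1 annotated start of Fhl2 are shown because they differ in exact matches to the sites searched. Windows from RefSeq on GRCm38.p6, 250 bases before to 50 bases after each annotated start, were searched on both strands for the CArG box (CC, 6 A or T, GG), which serum response factor is known to bind, for the MCAT element GGAATG, known from muscle genes and bound by TEAD factors, and for the FoxO core GTAAACA. MCAT was added after values had been seen, and so were Actc1 and Fhl2. The 200 bases that end just before the start are printed 5′ to 3′ on the gene's strand, which is the minus strand for all 4, with CArG and MCAT matches in capitals. They lie at chr8:123894776-123894975, chr2:114052876-114053075, chr1:43196762-43196961 and chr19:34255374-34255573.
Acta1: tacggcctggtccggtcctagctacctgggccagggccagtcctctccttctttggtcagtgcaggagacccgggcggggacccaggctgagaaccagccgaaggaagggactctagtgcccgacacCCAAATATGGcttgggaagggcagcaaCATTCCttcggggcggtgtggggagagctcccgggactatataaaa
Actc1: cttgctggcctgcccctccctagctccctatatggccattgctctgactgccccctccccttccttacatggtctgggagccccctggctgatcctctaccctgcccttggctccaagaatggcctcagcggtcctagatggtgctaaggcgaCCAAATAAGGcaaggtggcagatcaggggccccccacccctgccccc
Fhl2: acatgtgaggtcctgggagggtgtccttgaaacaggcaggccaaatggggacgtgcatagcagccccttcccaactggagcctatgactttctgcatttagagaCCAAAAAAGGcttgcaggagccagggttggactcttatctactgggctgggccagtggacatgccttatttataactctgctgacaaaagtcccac
Acta2: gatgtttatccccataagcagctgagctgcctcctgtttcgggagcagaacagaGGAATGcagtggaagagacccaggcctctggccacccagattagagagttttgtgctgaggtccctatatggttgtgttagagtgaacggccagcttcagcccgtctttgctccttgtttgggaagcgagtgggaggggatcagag

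Counted back from the start, the Acta1 window held a CArG box at -73 to -64 and an MCAT element at -46 to -41. Actc1 held a CArG box at -47 to -38, and the Fhl2 window shown held one at -96 to -87. The window of another annotated Fhl2 start, not printed, held a CArG box at -31 to -22. The Acta2 window held an MCAT element at -146 to -141 and no exact CArG box. It did hold ccctatatgg and ccttgtttgg, each 1 base off the pattern searched. Such near matches are not particular to Acta2, since the Actc1 window also held ccctatatgg and the Acta1 window held ccatatacgg. The search took exact matches only, so it does not show that Acta2 lacks sites for serum response factor. Of 32851 windows in the table, 1.63% held a CArG box, 3.65% a FoxO core and 14.7% an MCAT element. Among genes with a window, a CArG box was found in 4 of 111 (3.60%) called higher in caPI3K (Acta1, Fhl2, Lclat1 and Myom1), in 3 of 95 (3.16%) called higher in dnPI3K (Ergic1, Selenbp1 and Stbd1) and in 1.84% of 5982 tested. The FoxO core was found in 3 of 111 (2.70%) and 1 of 95 (1.05%) against 3.21%, and the 1 was Akt1. MCAT was found in 18% and 21.1% against 14.9%. The Irs2 and Nppa windows held none of the 3 motifs, which says only that these letters are not in those windows. No matches overlapped in the windows shown.

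Of 15 tested thin filament genes, 3 were called, Acta1 higher in caPI3K and Acta2 and Tpm2 higher in dnPI3K. Tpm2 encodes beta-tropomyosin, which lies along the actin filament. It read 353, 288 and 431 on the caPI3K arrays, 1179, 1269.9 and 1343 on the dnPI3K arrays and 519, 414 and 296 on the NTG arrays, with all dnPI3K arrays above all others (log2 change -1.84 ± 0.21, adjusted p = 0.00119). A second Tpm2 probe set lay on the other side of 0 and was not called (0.95 ± 0.39, adjusted p = 0.252). The cardiac troponins Tnnc1 (0.21), Tnni3 (-0.14) and Tnnt2 (-0.11) were not called.

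Of 9 tested thick filament genes, 1 was called higher in caPI3K and 2 higher in dnPI3K. Myom2, a protein of the M-band that ties myosin filaments together, was higher in dnPI3K (1419 ± 361 in caPI3K and 3798 ± 989 in dnPI3K, -1.42 ± 0.22, adjusted p = 0.00601), and its relative Myom1 was slightly higher in caPI3K (6138 ± 186 in caPI3K and 4630.4 ± 105 in dnPI3K, 0.41 ± 0.07, adjusted p = 0.0157). Myom2 read 1049.7, 1436 and 1772 on the caPI3K arrays, 3117, 3344 and 4932 on the dnPI3K arrays and 1622, 2018 and 2338 on the NTG arrays. Mybpc3, cardiac myosin-binding protein C, was 1.40-fold higher in dnPI3K (adjusted p = 0.0164). That call was lost with the deposited values (-0.10), with scaling to the same median (-0.09), and without caPI3K replicate 1 or 3 or dnPI3K replicate 2 or 3 (adjusted p up to 0.0758). Myom1 lost its call without caPI3K replicate 2 or 3 or dnPI3K replicate 2 or 3 (adjusted p up to 0.0717). Beta-myosin heavy chain, Myh7, read 17831, 27516 and 24309.8 on the caPI3K arrays and 28858, 30859.6 and 30302 on the dnPI3K arrays and was not called (-0.39 ± 0.13, adjusted p = 0.16). Its NTG level was 11214 ± 84.9, below both. Alpha-myosin heavy chain, Myh6, was at -0.06 ± 0.08 and was not called.

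At the Z-disc and in the stretch response, 1 of 16 tested genes was called. Fhl2, a LIM protein that docks on titin and moves to the nucleus, was 1.52-fold higher in caPI3K. It read 13919.9, 13566 and 15384 on the caPI3K arrays, 9427, 9489 and 9280.5 on the dnPI3K arrays and 13067, 14968 and 13995 on the NTG arrays, with the dnPI3K arrays below all others (log2 change 0.60 ± 0.08, adjusted p = 0.00337). The small heat shock protein Cryab (0.48 ± 0.12, adjusted p = 0.0598), alpha-actinin Actn2 (0.73 ± 0.22, adjusted p = 0.113) and the LIM protein Csrp3 (0.25 ± 0.11, adjusted p = 0.263) were not called. In all, 13 of the 16 had values above 0, with a median of 0.12.

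Both cardiac natriuretic peptide genes were higher in the smaller, dnPI3K hearts. These hormones are released by heart muscle under stretch and are markers of cardiac load. Nppa read 1694, 1450 and 3527 on the caPI3K arrays, 11231, 8414 and 9192 on the dnPI3K arrays and 6840.4, 3744 and 1553 on the NTG arrays. The dnPI3K arrays were the highest, and NTG arrays spread over the range of the caPI3K arrays and above it. The log2 change was -2.22 ± 0.46, adjusted p = 0.0282, with -2.60 to -1.96 when 1 array was left out, and the call was lost without caPI3K replicate 1 or 2 or dnPI3K replicate 1, 2 or 3 (adjusted p up to 0.119). It was also lost with robust moderation, no intensity trend or no filter on dim probe sets in the limma fit (adjusted p up to 0.126). Nppb read 9131, 6242 and 9022 on the caPI3K arrays, 12219, 12172 and 12904 on the dnPI3K arrays and 7333, 9392 and 8957 on the NTG arrays, a 1.55-fold difference (-0.63 ± 0.15, adjusted p = 0.0428). Nppb lost its call without caPI3K replicate 1, 2 or 3, dnPI3K replicate 1, 2 or 3 or NTG replicate 2 (adjusted p up to 0.125), and with the deposited values or scaling to the same median. The other 6 tested genes of the list, among them the peptide-activating protease Corin (-0.37 ± 0.19, adjusted p = 0.365) and the clearance receptor Npr3 (-0.39 ± 0.22, adjusted p = 0.438), were not called.

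Nppa is also an atrial marker, and by brightest probe sets no other atrial marker was called. The atrial myosin light chains Myl4 and Myl7 had the largest log2 differences of all genes tested in the opposite direction, without being called. Myl4 read 499, 421 and 4304 on the caPI3K arrays, 27.9, 49.7 and 36.1 on the dnPI3K arrays and 6896, 3669 and 223 on the NTG arrays (log2 change 4.60 ± 1.15, adjusted p = 0.0598). Myl7 read 653, 525 and 5579 on the caPI3K arrays, 36.5, 142 and 42.2 on the dnPI3K arrays and 7253, 4703 and 315 on the NTG arrays (log2 change 4.36 ± 1.16, adjusted p = 0.0757). Levels within the caPI3K and NTG groups spread over an order of magnitude, with caPI3K replicate 3 and NTG replicates 1 and 2 high. Both genes were called without NTG replicate 3 (adjusted p = 0.00868 for Myl4 and 0.0183 for Myl7) and with the caPI3K and dnPI3K arrays alone, array weights or only probe sets above the median (for the first of these, adjusted p = 0.0137 and 0.027), and Myl4 also without NTG replicate 1 (adjusted p = 0.0443). A second, dimmer Myl4 probe set was called higher in caPI3K (1.49 ± 0.29, adjusted p = 0.0206). Of 13 tested atrial markers, 1 was called (Nppa), 6 had values above 0 and 7 below, and the median was -0.01. Sln (-0.28), Bmp10 (-0.19) and Gja5 (-0.12) were not called. The summed level of the list was 4359.8 to 16224 in caPI3K, 10427 to 13173 in dnPI3K and 3811 to 24479 in NTG, and the part of atrial tissue in these results was not tested.

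Among genes typical of fast skeletal muscle, a pair stood out. Myl1, a light chain of fast skeletal myosin that is also made in the embryonic heart, was 9.31-fold higher in caPI3K. It read 9234, 13606 and 9917 on the caPI3K arrays, 1349, 1011 and 1132 on the dnPI3K arrays and 6977, 4689.7 and 3158 on the NTG arrays. The 3 groups did not overlap, with dnPI3K lowest and caPI3K highest (log2 change 3.22 ± 0.25, adjusted p = 0.000122, 3.04 to 3.34 with 1 array left out). Casq1, the calcium store protein of fast skeletal muscle, read 3560.1, 5909 and 5428 on the caPI3K arrays, 981, 651 and 683 on the dnPI3K arrays and 2153, 3117 and 2983 on the NTG arrays, a 6.40-fold difference (2.68 ± 0.22, adjusted p = 0.000143). The other 16 tested skeletal markers were not called, but not all of them lay near 0. Ckm read higher in caPI3K (2293 against 1814 in dnPI3K, 0.34 ± 0.12, adjusted p = 0.18). Tnni1 read lower there (246 against 451 in dnPI3K, -0.94 ± 0.37, adjusted p = 0.221). Of the 18 tested, Myl1 and Casq1 included, 6 had an unadjusted limma p under 0.05, against 1281 of all 7484 genes. The 2 groups did not overlap for 4 genes higher in caPI3K and 2 higher in dnPI3K. Over all tested probe sets these shares were 11.2% and 12.1%. Pvalb (1469.8 against 1274, 0.22), Mylpf (201 against 217, -0.09), Myh4 (417 against 408, 0.01) and Tnnt3 (56.6 against 49.1, 0.11), which define fast skeletal fibres, had these means in caPI3K and dnPI3K. The list median was 0.11, and its summed level, with Myl1 and Casq1 in it, was 19416 to 25768 in caPI3K, 7139 to 8724 in dnPI3K and 12945 to 16234 in NTG.

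Of 16 tested calcium cycling genes, 3 were called, all higher in caPI3K. Besides Casq1 these were Hrc, which binds calcium inside the sarcoplasmic reticulum (6544 ± 336 in caPI3K and 4835 ± 157 in dnPI3K, 0.44 ± 0.07, adjusted p = 0.0113), and Cacna2d1, an auxiliary subunit of the L-type calcium channel (490.3 ± 82.9 in caPI3K and 219 ± 20.8 in dnPI3K, 1.16 ± 0.22, adjusted p = 0.0191). Hrc lost its call without caPI3K replicate 2 (adjusted p up to 0.0636) and Cacna2d1 without caPI3K replicate 2 or 3 or dnPI3K replicate 1, 2 or 3 (adjusted p up to 0.0966). The calcium pump Atp2a2 (18392 against 18420.3, 0.00), the release channel Ryr2 (-0.05) and the cardiac calsequestrin Casq2 (0.39) were not called. Of 21 ion channel and gap junction genes, limma called 0 and 5 had an unadjusted p under 0.05. The largest was Kcnd3, a subunit of the transient outward potassium channel (207 ± 64.1 in caPI3K and 70.3 ± 8.08 in dnPI3K, 1.52 ± 0.53, adjusted p = 0.171).

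Of 10 tested smooth muscle markers, 2 were called, both higher in dnPI3K. They were Acta2 and the smooth muscle myosin Myh11 (179.8 ± 56.4 in caPI3K and 399 ± 31.2 in dnPI3K, -1.20 ± 0.26, adjusted p = 0.0334), and Myh11 lost its call without caPI3K replicate 2 or 3 or dnPI3K replicate 1, 2 or 3 (adjusted p up to 0.107). Tagln (-0.56 ± 0.15, adjusted p = 0.0789) and gamma smooth muscle actin, Actg2 (0.67 ± 0.17, adjusted p = 0.0679), were not called and pointed in opposite directions, and neither were Mylk (-0.02) and Smtn (-0.07). The list median was -0.18. Its summed level was 6767 to 7089 in caPI3K, 8097 to 9164 in dnPI3K and 6928 to 7929 in NTG. In these whole-ventricle samples a smaller number of cells of a type and less RNA per cell cannot be told apart.

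Of 14 tested endothelial markers, Tfpi was called. Its product restrains clotting set off by tissue factor, and it read 432, 447 and 502 on the caPI3K arrays, 1036, 1067 and 1038 on the dnPI3K arrays and 895, 851 and 1224 on the NTG arrays. The caPI3K arrays lay below all others (log2 change -1.19 ± 0.15, adjusted p = 0.00163), and dnPI3K overlapped NTG. The receptors Kdr (-0.77 ± 0.23, adjusted p = 0.107) and Tie1 (-0.48 ± 0.18, adjusted p = 0.187) were not called, and Cdh5 (0.21) and Pecam1 (0.31) had values above 0. The list median was -0.21, with summed levels of 11844 to 13706 in caPI3K and 14810.4 to 15220.4 in dnPI3K.

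Of 24 tested angiogenic factors and receptors, 3 were called, all higher in dnPI3K, and with 1 array left out the number was 3 to 4. Pdgfa, a growth factor for mesenchymal and smooth muscle cells, read 819, 799 and 796 on the caPI3K arrays, 1157, 1581 and 1595 on the dnPI3K arrays and 1038, 988 and 1077 on the NTG arrays (log2 change -0.83 ± 0.13, adjusted p = 0.00678). Vegfb, a vascular growth factor abundant in heart muscle, changed by -0.68 ± 0.11, adjusted p = 0.0084 (2726 ± 212 in caPI3K and 4389 ± 552 in dnPI3K), and the co-receptor Nrp1 by -0.66 ± 0.09, adjusted p = 0.00403 (1738 ± 41.0 in caPI3K and 2746 ± 72.0 in dnPI3K). Vegfa, the main angiogenic factor, lay in the same direction without a call (-0.75 ± 0.20, adjusted p = 0.0776). The list median was -0.14, and a second Nrp1 probe set was not called (0.19).

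Of 12 tested fibroblast markers, 3 were called, all higher in caPI3K, and 10 had values above 0, with a median of 0.23. Ddr2, a receptor for fibrillar collagen, read 515, 591 and 589.6 on the caPI3K arrays, 298, 312 and 223 on the dnPI3K arrays and 577, 613 and 532 on the NTG arrays, with the dnPI3K arrays below all others (log2 change 1.04 ± 0.17, adjusted p = 0.00744). Col1a1, a chain of type I collagen, was at 2405 ± 283 in caPI3K and 1211 ± 182 in dnPI3K (0.99 ± 0.19, adjusted p = 0.018), and a second probe set gave the same call (adjusted p = 0.00444). Mfap5, a microfibril protein, was at 734 ± 101 in caPI3K and 437 ± 85.9 in dnPI3K (0.76 ± 0.18, adjusted p = 0.047), and its second probe set was not called (0.03). Pdgfra (0.07), Tcf21 (-0.17) and Dcn (0.02), other markers of these cells, were not called. The summed level was 31407 to 35111 in caPI3K and 28578 to 32209 in dnPI3K, which overlap. Col1a1 lost its call without caPI3K replicate 1 or 2 or dnPI3K replicate 2 (adjusted p up to 0.0841), and Mfap5 without caPI3K replicate 1, 2 or 3, dnPI3K replicate 1 or 2 or NTG replicate 1 or 2 (adjusted p up to 0.172).

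Of 48 tested collagens and matrix proteins, 3 were called higher in caPI3K and 1 higher in dnPI3K, with a median of 0.15. Besides Col1a1 they were Col4a1, a chain of the basement membrane collagen (3401 ± 293 in caPI3K and 1871 ± 384 in dnPI3K, 0.88 ± 0.15, adjusted p = 0.0108), and Col8a1, a short-chain collagen (684 ± 47.8 in caPI3K and 351 ± 71.9 in dnPI3K, 0.98 ± 0.18, adjusted p = 0.0157). Lamb3, a laminin chain, ran the other way. It read 227, 173 and 147 on the caPI3K arrays, 512, 1206 and 1039.9 on the dnPI3K arrays and 371, 342 and 251 on the NTG arrays (log2 change -2.26 ± 0.31, adjusted p = 0.00337), and a second probe set gave the same call. Col4a1 lost its call without dnPI3K replicate 2 (adjusted p up to 0.0527) and Col8a1 without caPI3K replicate 1 or 2 or dnPI3K replicate 2 or 3 (adjusted p up to 0.069). The number called higher in caPI3K was 0 to 3 with 1 array left out.

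Ccn2, a matricellular protein induced by TGF-beta and by mechanical stress, was 3.71-fold higher in dnPI3K. It read 924, 1091 and 1520 on the caPI3K arrays, 3611, 4039 and 5358 on the dnPI3K arrays and 1914, 1399 and 1663 on the NTG arrays. All dnPI3K arrays lay above all others, and caPI3K overlapped NTG (log2 change -1.89 ± 0.20, adjusted p = 0.000759). Of 20 tested genes of matrix remodelling 2 were called, Ccn2 and Timp3, an inhibitor of metalloproteinases (1630.5 ± 176 in caPI3K and 2877 ± 247 in dnPI3K, -0.82 ± 0.15, adjusted p = 0.016), which lost its call without caPI3K replicate 1 or 2 or dnPI3K replicate 2 or 3 (adjusted p up to 0.0781). Of 27 genes of TGF-beta and BMP signalling, limma called 0 and 2 had an unadjusted p under 0.05. Myostatin, Mstn, a muscle growth inhibitor, was at 153 against 56.8 (1.43 ± 0.42, adjusted p = 0.107).

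**Figure D4:**
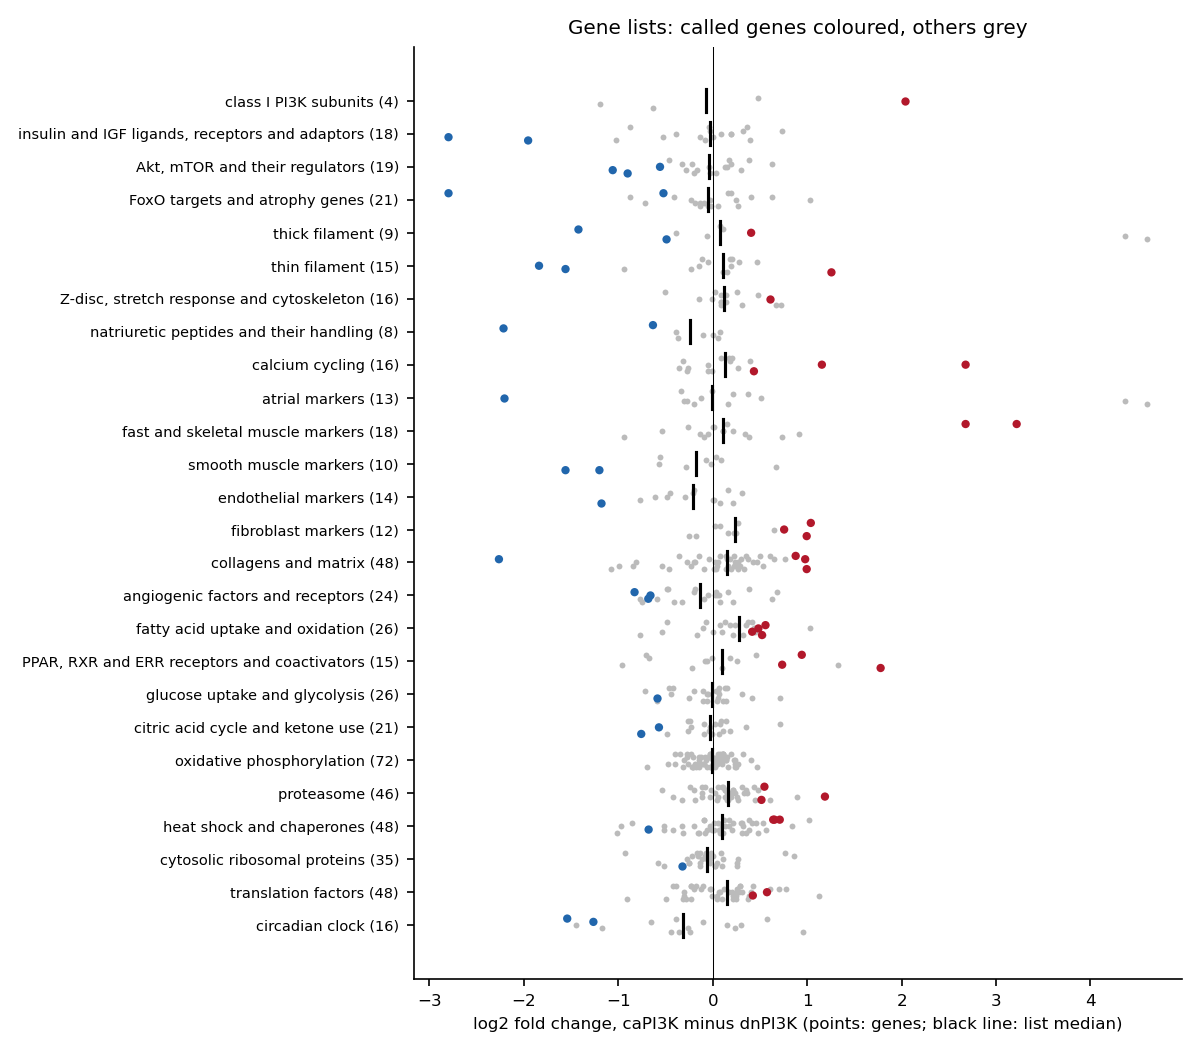
Log2 fold change, caPI3K minus dnPI3K, of the tested genes of 26 lists (points, the number tested in brackets), with the list median as a black line and called genes in red or blue. List medians lie close to 0, from -0.31 for circadian clock genes to 0.28 for fatty acid oxidation, while single genes lie farther out, such as Myl1 at 3.22 among skeletal muscle markers.

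The nuclear receptor that drives fatty acid oxidation genes was lower in dnPI3K. Ppara read 1706, 1633 and 1683 on the caPI3K arrays, 663, 439 and 399.7 on the dnPI3K arrays and 1593, 1838 and 1756 on the NTG arrays. The dnPI3K arrays lay below all others, and caPI3K overlapped NTG (log2 change 1.78 ± 0.17, adjusted p = 0.000296, 1.63 to 2.002 with 1 array left out). Of 15 tested PPAR, RXR and ERR receptors and coactivators, 3 were called, all higher in caPI3K. The others were Rxrg, a partner receptor (634 ± 27.2 in caPI3K and 382 ± 36.3 in dnPI3K, 0.74 ± 0.14, adjusted p = 0.0163), and Nrip1, a corepressor of nuclear receptors (444 ± 77.6 in caPI3K and 231 ± 36.8 in dnPI3K, 0.94 ± 0.19, adjusted p = 0.0265). Rxrg lost its call without caPI3K replicate 1, 2 or 3 or dnPI3K replicate 1 or 2 (adjusted p up to 0.0882) and Nrip1 without caPI3K replicate 2 or 3 or dnPI3K replicate 1 or 2 (adjusted p up to 0.115). Ppard, a related receptor, was not called (1.32 ± 0.36, adjusted p = 0.0816).

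Of 26 tested genes of fatty acid uptake and oxidation, 4 were called higher in caPI3K and 0 higher in dnPI3K. The changes were small. Fabp3, the fatty acid binding protein of heart muscle, was at 17827 ± 1552 in caPI3K and 13316 ± 249 in dnPI3K (0.42 ± 0.09, adjusted p = 0.0313). The carnitine carrier Slc25a20 (0.56 ± 0.12, adjusted p = 0.0293), the medium-chain dehydrogenase Acadm (0.48 ± 0.11, adjusted p = 0.0466) and the thiolase Acaa2 (0.52 ± 0.11, adjusted p = 0.0349) were the others. In all 19 of the 26 had values above 0, and the median was 0.28, against 0.00 for all genes. With 1 array left out this list median was 0.15 to 0.38. The interquartile range over all tested probe sets was -0.24 to 0.23, which is a spread of single probe sets and not of list medians. All 4 calls depended on the arrays, since the number called was 0 to 4 with 1 array left out. Fabp3 lost its call without caPI3K replicate 2 or 3 or dnPI3K replicate 1, 2 or 3 (adjusted p up to 0.131), Slc25a20 without caPI3K replicate 1, 2 or 3 or dnPI3K replicate 1 or 2 (adjusted p up to 0.122), Acadm without caPI3K replicate 2 or 3, dnPI3K replicate 1, 2 or 3 or NTG replicate 1 or 2 (adjusted p up to 0.165) and Acaa2 without caPI3K replicate 1, 2 or 3, dnPI3K replicate 1, 2 or 3 or NTG replicate 2 (adjusted p up to 0.133).

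Other routes of energy metabolism showed few calls. In the citric acid cycle and ketone use, 2 of 21 were called, both higher in dnPI3K. They were the mitochondrial isocitrate dehydrogenase Idh2 (11300.1 ± 1963 in caPI3K and 18962 ± 1694 in dnPI3K, -0.76 ± 0.13, adjusted p = 0.0105) and Oxct1, the enzyme that activates ketone bodies (5099.8 ± 359.5 in caPI3K and 7561 ± 268 in dnPI3K, -0.57 ± 0.12, adjusted p = 0.0275). Idh2 lost its call with the deposited values (it was not called with scaling to the same median either) and without caPI3K replicate 2 or dnPI3K replicate 2 (adjusted p up to 0.0532), and Oxct1 without caPI3K replicate 1, 2 or 3 or dnPI3K replicate 1, 2 or 3 (adjusted p up to 0.0917). In glucose uptake and glycolysis 1 of 26 was called, the pyruvate dehydrogenase kinase Pdk1 (-0.59 ± 0.13, adjusted p = 0.0412), which lost its call without caPI3K replicate 1, 2 or 3 or dnPI3K replicate 1, 2 or 3 (adjusted p up to 0.142). The glucose transporter Slc2a4 was not called (-0.42 ± 0.14, adjusted p = 0.146). Of 72 oxidative phosphorylation genes, limma called 0, and the median was -0.01. An unadjusted limma p under 0.05 was reached by 14 of them, against 1281 of all 7484 genes.

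Among proteasome genes 3 of 46 were called, all higher in caPI3K, 34 had values above 0, and the median was 0.16. Psme4, a large activator that caps the proteasome core, read 2883, 3432 and 3416 on the caPI3K arrays, 1499, 1329 and 1435 on the dnPI3K arrays and 2364, 2619.8 and 2319 on the NTG arrays. The 2 transgenic groups did not overlap, with NTG between them (log2 change 1.19 ± 0.10, adjusted p = 0.000143). The core subunits Psmb7 (0.55 ± 0.10, adjusted p = 0.018) and Psmb3 (0.52 ± 0.12, adjusted p = 0.041) changed by less. Psmb7 lost its call without caPI3K replicate 2 or 3 or dnPI3K replicate 1, 2 or 3 (adjusted p up to 0.0927) and Psmb3 without caPI3K replicate 1, 2 or 3 or dnPI3K replicate 1, 2 or 3 (adjusted p up to 0.13). Among ubiquitin ligases and autophagy genes 3 of 22 were called, the autophagosome protein Map1lc3a higher in caPI3K (0.38 ± 0.09, adjusted p = 0.0466) and Gabarapl1 and the lysosomal membrane protein Lamp1 (-0.42 ± 0.08, adjusted p = 0.0145) higher in dnPI3K. Map1lc3a lost its call without caPI3K replicate 1, 2 or 3, dnPI3K replicate 1, 2 or 3 or NTG replicate 1 or 2 (adjusted p up to 0.146) and Lamp1 without caPI3K replicate 3 or dnPI3K replicate 3 (adjusted p up to 0.057), and both calls were absent with the deposited values.

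Of 48 tested heat shock and chaperone genes, 3 were called higher in caPI3K and 1 higher in dnPI3K, with a median of 0.10. The constitutive chaperone Hspa8 read 6967, 7656 and 6999.7 on the caPI3K arrays, 4987, 4453 and 4442 on the dnPI3K arrays and 5043, 5625 and 6570 on the NTG arrays (log2 change 0.64 ± 0.10, adjusted p = 0.00849). The large chaperone Hsph1 was at 1604 ± 122 in caPI3K and 1022 ± 115 in dnPI3K (0.65 ± 0.12, adjusted p = 0.0157), with NTG at 856 ± 74.3, and Hsp90aa1 at 4001 ± 413 in caPI3K and 2445 ± 229.5 in dnPI3K (0.71 ± 0.13, adjusted p = 0.0178). Dnajb6, a co-chaperone found at the Z-disc, was higher in dnPI3K (1168 ± 20.3 in caPI3K and 1879 ± 206 in dnPI3K, -0.68 ± 0.10, adjusted p = 0.00491), and a second probe set, at -0.04, was not called. Hsph1 lost its call without caPI3K replicate 1 or 2 or dnPI3K replicate 1 or 2 (adjusted p up to 0.0759) and Hsp90aa1 without caPI3K replicate 2 or dnPI3K replicate 2 or 3 (adjusted p up to 0.0908). Of 18 genes of endoplasmic reticulum stress, limma called 0 and 3 had an unadjusted p under 0.05, and Hspa5, the main chaperone of that compartment, was at 0.45 ± 0.20, adjusted p = 0.282.

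In protein synthesis, 2 of 48 translation factors were called higher in caPI3K, Eif2b4 (0.57 ± 0.13, adjusted p = 0.041) and Eif4g2 (0.42 ± 0.09, adjusted p = 0.0349), and 1 of 35 cytosolic ribosomal protein genes, Rps3a1, was called higher in dnPI3K (-0.33 ± 0.08, adjusted p = 0.0421). Eif2b4 lost its call without caPI3K replicate 1, 2 or 3, dnPI3K replicate 1 or 2 or NTG replicate 1 or 2 (adjusted p up to 0.131), Eif4g2 without caPI3K replicate 1, 2 or 3, dnPI3K replicate 1, 2 or 3 or NTG replicate 1 (adjusted p up to 0.131) and Rps3a1 without caPI3K replicate 1, 2 or 3, dnPI3K replicate 1, 2 or 3 or NTG replicate 1 or 2 (adjusted p up to 0.133). Rps3a1 was also not called with the deposited values (-0.17, adjusted p = 0.414), with scaling to the same median (-0.17, adjusted p = 0.503) or with the floor at the 5th percentile (adjusted p = 0.0506). The medians were 0.15 and -0.06.

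Of 30 tested hypertrophic transcription factors and calcineurin genes, 2 were called, both higher in caPI3K. Mef2c, a muscle transcription factor, read 979, 927 and 1064 on the caPI3K arrays, 474, 379 and 365 on the dnPI3K arrays and 739, 1233 and 937 on the NTG arrays. The dnPI3K arrays lay below all others (log2 change 1.29 ± 0.18, adjusted p = 0.00403). A pair of further Mef2c probe sets gave the same call (1.58 ± 0.29 and 2.09 ± 0.30), and another did not (0.05). Nfatc3, a target of calcineurin, was at 402 ± 51.9 in caPI3K and 214 ± 17.5 in dnPI3K (0.91 ± 0.17, adjusted p = 0.0175) and lost its call without caPI3K replicate 1 or 2 or dnPI3K replicate 1 or 2 (adjusted p up to 0.0923). Of 34 MAP kinases and their phosphatases, limma called 0 and 7 had an unadjusted p under 0.05, the largest difference being that of the phosphatase Dusp8 (-1.15 ± 0.30, adjusted p = 0.0726).

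Circadian clock genes had the lowest list median, -0.31. Of 16 tested, 2 were called, both higher in dnPI3K. Per3, a repressor of the clock, read 519, 468 and 499 on the caPI3K arrays, 1161, 1609.8 and 899 on the dnPI3K arrays and 431, 540.2 and 634 on the NTG arrays, with the dnPI3K arrays above all others (log2 change -1.26 ± 0.21, adjusted p = 0.00883). The nuclear receptor Rora changed by -1.54 ± 0.33, adjusted p = 0.031 and lost its call without caPI3K replicate 1, 2 or 3 or dnPI3K replicate 1, 2 or 3 (adjusted p up to 0.118). The other period genes Per2 (-1.45 ± 0.40, adjusted p = 0.0865) and Per1 (-1.18) lay in the same direction, and Arntl, the activator of the clock, in the other (0.95). None of these last genes was called. The labels give no time of day for the tissue collection, and its part in these values was not tested.

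Among signalling genes of the adrenergic, angiotensin and endothelin systems, 2 of 19 were called. Akap9, an anchor of protein kinase A, read 282, 448 and 383 on the caPI3K arrays, 27.3, 53.1 and 14.2 on the dnPI3K arrays and 359.9, 288 and 375 on the NTG arrays. A pair of the dnPI3K arrays lay on the floor of 35.3 below which no order was read, and caPI3K overlapped NTG (log2 change 3.17 ± 0.28, adjusted p = 0.000195). Prkar1a, a regulatory subunit of protein kinase A, was higher in dnPI3K (-0.44 ± 0.08, adjusted p = 0.016) and lost its call without caPI3K replicate 1 or dnPI3K replicate 1 or 3 (adjusted p up to 0.0611). Gnai2, of the same list, was not called by its brightest probe set (-0.13 ± 0.10, adjusted p = 0.597). A dimmer Gnai2 probe set was called higher in dnPI3K (-0.71 ± 0.13, adjusted p = 0.0145), and another was not called (-0.49). Of 39 antioxidant and glutathione genes 2 were called, the glutathione transferase Gsta4 higher in caPI3K (800 ± 77.7 in caPI3K and 422 ± 67.9 in dnPI3K, 0.93 ± 0.15, adjusted p = 0.00747) and the metallothionein Mt2 higher in dnPI3K (1094 ± 253 in caPI3K and 2169 ± 416 in dnPI3K, -0.997 ± 0.20, adjusted p = 0.021). Mt2 lost its call without caPI3K replicate 3 or dnPI3K replicate 2 or 3 (adjusted p up to 0.093).

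The gene with the smallest adjusted p among those named was Gdap10, a transcript of little known function. It read 1357, 1428 and 1246 on the caPI3K arrays, 198, 215 and 257 on the dnPI3K arrays and 1422, 1775 and 1502 on the NTG arrays. The dnPI3K arrays lay far below all others (log2 change 2.60 ± 0.14, adjusted p = 1.49e-05). Further genes among the 15 largest changes toward caPI3K were Egf, an epidermal growth factor (275 ± 44.9 in caPI3K and 48.0 ± 27.9 in dnPI3K, 2.38 ± 0.33, adjusted p = 0.00394), Tpbpa (235 ± 33.2 in caPI3K and 42.5 ± 4.16 in dnPI3K, 2.46 ± 0.29, adjusted p = 0.00134), Zbtb12 (2.19 ± 0.31, adjusted p = 0.00403), Ggnbp2 (1.97 ± 0.29, adjusted p = 0.0047) and Eepd1 (1.93 ± 0.25, adjusted p = 0.00219, with all 3 dnPI3K arrays on the floor). For Egf a second probe set lay in the other direction without a call (-0.67). Nkain1 (2.81 ± 0.55, adjusted p = 0.02), Amot (2.07 ± 0.39, adjusted p = 0.0175), Pcdh7 (2.05 ± 0.40, adjusted p = 0.0214), B3galt2 (1.91 ± 0.41, adjusted p = 0.0311) and the urocortin receptor Crhr2 (2.16 ± 0.49, adjusted p = 0.0398, all dnPI3K arrays on the floor) completed the group. Nkain1 was lost without caPI3K replicate 1, 2 or 3 or dnPI3K replicate 1 or 2 (adjusted p up to 0.0923), Amot without caPI3K replicate 1 or 2 or dnPI3K replicate 2 or 3 (adjusted p up to 0.084), Pcdh7 without caPI3K replicate 1, 2 or 3 or dnPI3K replicate 1 or 2 (adjusted p up to 0.0923), B3galt2 without caPI3K replicate 2 or 3 or dnPI3K replicate 1 or 2 (adjusted p up to 0.124) and Crhr2 without caPI3K replicate 1 or 2, dnPI3K replicate 1, 2 or 3 or NTG replicate 1 or 2 (adjusted p up to 0.146). Second probe sets of Pcdh7 (0.33) and Crhr2 (0.03) were not called, and that of Nkain1 was (1.60).

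Toward dnPI3K, Bex1, a small gene of the brain-expressed X-linked family, read 5.88, 9.09 and 5.60 on the caPI3K arrays, 259.6, 250.3 and 260.1 on the dnPI3K arrays and 17.4, 36.8 and 70.7 on the NTG arrays. All 3 caPI3K arrays lay on the floor, so the 7.26-fold difference is against the floor (-2.86 ± 0.31, adjusted p = 0.000914). Rad51b, a gene of homologous recombination, read 59.9, 70.1 and 56.1 on the caPI3K arrays, 289.9, 434 and 385 on the dnPI3K arrays and 123, 79.5 and 120 on the NTG arrays (log2 change -2.56 ± 0.29, adjusted p = 0.00113). Phlda1 (192 ± 36.1 in caPI3K and 671 ± 107 in dnPI3K, -1.81 ± 0.22, adjusted p = 0.00164), the glycosyltransferase B4galt6 (191 ± 26.3 in caPI3K and 559.6 ± 87.5 in dnPI3K, -1.55 ± 0.20, adjusted p = 0.00195) and Aff1 (38.3 ± 20.4 in caPI3K and 142 ± 24.8 in dnPI3K, -1.69 ± 0.28, adjusted p = 0.00918) kept their calls with each array left out. By brightest probe sets, Tbc1d10a had the largest called change in this direction (1146 ± 365 in caPI3K and 10566 ± 4463 in dnPI3K, -3.16 ± 0.61, adjusted p = 0.0191), was lost without caPI3K replicate 1, 2 or 3 or dnPI3K replicate 1 or 2 (adjusted p up to 0.0758), and its second probe set was not called (-0.43). Tbc1d10a was also lost with robust moderation, no intensity trend or no filter on dim probe sets in the limma fit (adjusted p up to 0.105). Rab3d (-1.78 ± 0.33, adjusted p = 0.016) was lost without caPI3K replicate 2 or dnPI3K replicate 2 or 3 (adjusted p up to 0.071) and the monocarboxylate carrier Slc16a7 (-1.94 ± 0.35, adjusted p = 0.0145) without caPI3K replicate 2 or 3 or dnPI3K replicate 1 or 3 (adjusted p up to 0.0662). With the floor at the 40th percentile Aff1 (-0.32), Slc16a7 (-0.37), Eepd1 (0.26) and Crhr2 (0.78) were not called, nor did the calls of Slc16a7 (-3.15) and Aff1 (-2.05) hold under a 5th percentile floor.

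A few called probe sets fall outside the naming rule and were picked after their values were seen. Mapt, which encodes the microtubule-associated protein tau, had an adjusted p next to that of Gdap10 and read 3627, 3641 and 4216 on the caPI3K arrays, 1357, 1402 and 1513 on the dnPI3K arrays and 3504, 3758 and 3442 on the NTG arrays (log2 change 1.42 ± 0.09, adjusted p = 5.34e-05). A second Mapt probe set gave the same call (1.22 ± 0.11), and another lay in the other direction and was not called (-0.52). A pair of Wnk1 probe sets, for a kinase that regulates ion transport, was lower in dnPI3K (2.71 ± 0.23, adjusted p = 0.000143, and 2.80 ± 0.23, adjusted p = 0.000143). The brightest Wnk1 probe set read 6065, 5814 and 5238 on the caPI3K arrays, 4453, 5026 and 4364 on the dnPI3K arrays and 5222, 4081 and 5301 on the NTG arrays and was not called (0.31 ± 0.11, adjusted p = 0.199). An Arhgap9 probe set of a type that can match several transcripts read 25.3, 35.3 and 23.7 on the caPI3K arrays, 439.6, 400.3 and 394 on the dnPI3K arrays and 45.7, 25.7 and 51.2 on the NTG arrays (log2 change -3.54 ± 0.26, adjusted p = 9.08e-05), with all caPI3K arrays on the floor. The brighter Arhgap9 probe set lay in the same direction and was not called (-1.59 ± 0.40, adjusted p = 0.0597). In all, 33 called probe sets had no single gene symbol, and the largest of those toward dnPI3K read 507, 396 and 251 on the caPI3K arrays, 3052, 3075 and 2671 on the dnPI3K arrays and 1338, 1291 and 1544 on the NTG arrays.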

How the data were processed

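Ventricular RNA of 9 mice was hybridised to 1-colour oligonucleotide arrays, 3 per group, with groups taken from the sample titles. The authors deposited a linear intensity for each of 12488 probe sets. Their method of summarising probes is not recorded in the labels. A mean of 500.4 on every array, with the extreme 2% at either end left out, shows that arrays had been scaled before deposition. Here the intensities were quantile normalized, values under the 20th percentile (35.3) were set to it as a floor, and log2 was taken. Testing required values over the floor on 3 or more of the 9 arrays, and 66 control probe sets were left out, which left 10645. Means and SD are of normalized intensities before the floor. The number of arrays limits the precision.

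All 9 arrays entered 1 limma 3.58.1 fit in R 4.3.3 (group as the only term, eBayes with intensity trend, 6 residual degrees of freedom), with the contrast caPI3K minus dnPI3K and two-sided Benjamini-Hochberg adjusted p-values. NTG arrays add to the estimate of spread. Symbols came from the platform's annotation, with 1 symbol for 10855 probe sets, several for 396 and none for 1237.

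Named are the 15 largest called, non-overlapping changes per direction, Acta1, Nppa, Irs2, Myl1 and Acta2, all measured PI3K subunits and up to 4 members of each of 42 lists with the smallest p. Called genes whose values are given outside this rule are said to be so. Some uncalled list members, such as Atp2a2, Cdh5, Dcn, Myh4 and Myh6, also fall outside it and are not marked where they appear. Members and lists were chosen with earlier results of these data known. Alternatives concerned normalization, floor, filter, moderation, array weights, probe sets per gene, the arrays in the fit and each array left out. The fit was tested on simulated data.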

Additional observations from a re-analysis of the deposited data

Results flagged for a closer look

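A pair of the 3 controls for 18S ribosomal RNA, which lie outside the gene comparison, read above all NTG arrays on the dnPI3K arrays. The 3′ control for 18S ribosomal RNA had a mean deposited intensity of 6059 ± 2477 (SD, n = 3) in dnPI3K, 518 ± 37.1 in caPI3K and 542 ± 112 in NTG. The control for the middle of the same RNA had a mean of 332 ± 195 in dnPI3K, 40.7 ± 6.47 in caPI3K and 58.5 ± 14.6 in NTG. The values of the middle control were 557, 221 and 218 on the dnPI3K arrays. The 5′ control overlapped between groups, with 438, 207 and 138 on the dnPI3K arrays, 168, 152 and 61.4 on the caPI3K arrays and 103, 67.5 and 175 on the NTG arrays. The part of this difference in the gene results was not tested.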

How the results depend on the processing

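No alternative reversed a called named gene or any of the uncalled genes examined with them (Actc1, Myl4, Myl7, Pik3ca, Pik3cd, Pik3r2 and Tagln). Other genes in the text were not examined for this. Of 82 named genes that were called, 28 kept the call under all alternatives and 47 lost it when at least 1 array was left out. The 345 calls became 219 with no filter on dim probe sets (96 of them higher in dnPI3K), 151 with no intensity trend (90 higher in caPI3K and 61 in dnPI3K) and 527 with array weights (258 higher in dnPI3K). With 1 array left out the count lay between 134 and 435, that higher in caPI3K between 76 and 223 and that higher in dnPI3K between 50 and 212. Quantile normalization left out gave 353 calls and scaling to the same median gave 295. Scaling to the same median ended the calls of Eif2b4, Eif4g2, Gabarapl1, Idh2, Lamp1, Map1lc3a, Mfap5, Mybpc3, Nppb, Oxct1, Prkar1a, Psmb3, Rps3a1 and Slc25a20, and the floor at the 5th percentile those of Acadm, Aff1, Foxo3, Map1lc3a, Mfap5, Rps3a1 and Slc16a7. Tagln was called with only probe sets above the median (adjusted p = 0.0476) and with array weights (adjusted p = 0.0369). The floor limits what can be read of dim genes such as Bex1, Eepd1 and Crhr2. No paired analysis was possible because the labels give no replicate numbers and each animal carries 1 genotype.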

Other observations

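Several gene groups without a called member complete the comparison of caPI3K and dnPI3K ventricles. Their counts at an unadjusted limma p under 0.05 stand against 1281 of all 7484 genes. Interferon response and MHC genes (37 tested) had a median log2 change of -0.18 with 0 called by limma and 2 at an unadjusted p under 0.05, and the antiviral gene Ifit2 was at -1.47 ± 0.47, adjusted p = 0.132. Among 30 cell cycle genes limma called 0 and 3 had an unadjusted p under 0.05, the farthest from 0 being Ccnd2, a D-type cyclin (82.5 ± 52.9 in caPI3K and 229.5 ± 43.7 in dnPI3K, -1.65 ± 0.41, adjusted p = 0.0601). Of 23 apoptosis genes limma called 0 and 1 had an unadjusted p under 0.05. Macrophage and leukocyte markers (15 tested), adipocyte markers (9) and blood and erythroid markers (5) had 0 calls in limma, with 0, 1 and 1 at an unadjusted p under 0.05. Summed levels in caPI3K and dnPI3K were 4313 to 4730.1 and 4236 to 4941 for macrophages and leukocytes, and 42164 to 52023 and 33218 to 42692 for blood.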
